A study of Mus musculus with 16 samples.

Results

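The expression of 10 genes of lower glycolysis and lactate export was followed in all 16 libraries of a study of mouse mammary tumors grown at 2 sites and treated with paclitaxel, a drug that stabilises microtubules. The genes were taken as a fixed list of names, Aldoa, Tpi1, Gapdh, Pgk1, Pgam1, Eno1, Pkm, Ldha, Slc16a1 and Slc16a3, and all 10 were found among the 17681 genes of the subcutaneous table and the 17882 genes of the liver table. The implanted cells were 4T1, a carcinoma line of mouse mammary origin that serves as a triple-negative breast cancer model. The hosts were female wild-type BALB/c mice of 6 weeks, and no group carried a genetic change. Subcutaneous tumors (SC) came from 400000 cells placed in the fourth mammary fat pad on the right, and liver tumors from 200000 cells placed under the capsule of the left liver lobe. The groups were untreated (pre_SC, 3 libraries) and treated (post_SC, 3 libraries) subcutaneous tumors, and untreated (pre_Liver, 5 libraries) and treated (post_Liver, 5 libraries) liver tumors. Treated mice received 10 mg/kg paclitaxel into the peritoneum 5 times per week for 2 weeks. According to the labels, controls were given PBS and tumors grew for 15 days, but not whether the untreated tumors were those controls or were taken before dosing, so tumor age and treatment cannot be told apart. The labels do not tie libraries to separate mice, and the p-values reflect only how these libraries vary. Below, before and after treatment stand for the untreated and treated groups, without a claim about time or pairing.

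Lower glycolysis splits fructose bisphosphate into triose phosphates, harvests ATP and NADH from them and ends in pyruvate. Lactate dehydrogenase then reduces pyruvate to lactate and regenerates the NAD+ that the Gapdh step consumes, and monocarboxylate transporters carry lactate and a proton across the plasma membrane. Fast-growing tumors often run this route even with oxygen present, and most of its genes are known targets of the hypoxia-inducible factors. Liver parenchyma instead can run most of the same steps backwards to make glucose, and hepatocytes use a pyruvate kinase isoenzyme of their own.

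The RNA came from digested tumors, with no sort described, so each library can mix carcinoma and host cells, and fewer cells of a type cannot be told apart from less RNA per cell. Values were TPM (transcript levels per length, scaled to a sum of 1000000) in the subcutaneous table and FPKM (fragments per length and depth) in the liver table. Depth is unknown from either unit, so no counting interval is given. Levels set side by side across sites are TPM recomputed over the 17119 genes shared by both tables. Summed over 10 epithelial markers of the carcinoma, the level was 4726 to 5497 TPM in the subcutaneous libraries, 582.5 to 3086 TPM in pre_Liver and 1123 to 3861 TPM in post_Liver. Summed over 10 hepatocyte markers it was 5.641 to 17.63 TPM in the subcutaneous libraries, 30550 to 133600 TPM in pre_Liver and 2977 to 74170 TPM in post_Liver. One treated subcutaneous library, post_SC replicate 2, stood apart with 7951 TPM over 6 skeletal muscle markers, against 202.3 to 402.2 TPM in the other subcutaneous libraries.

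The members are spread over the genome (GRCm38, counted from 1). Aldoa lies on chromosome 7 (126795234 to 126800751, minus strand, with a second annotated entry of that name just upstream), Tpi1 on chromosome 6 (124810586 to 124814296, minus), Gapdh on chromosome 6 (125161715 to 125166467, minus) and Pgk1 on chromosome X (106187100 to 106203699, plus). Pgam1 lies on chromosome 19 (41911923 to 41918660, plus), Eno1 on chromosome 4 (150236721 to 150248879, plus), Pkm on chromosome 9 (59656368 to 59679375, plus) and Ldha on chromosome 7 (46841475 to 46855627, plus). The transporter genes Slc16a1 on chromosome 3 (104638668 to 104658462, plus) and Slc16a3 on chromosome 11 (120948480 to 120960868, plus) complete the list. Aldoa, Tpi1 and Gapdh overlap a gene on the other strand (Fam57b, Spsb2 and Iffo1), and whether counting used strand is not given in the sources used here, so their values may include reads of those neighbours. Several of the enzymes, Gapdh above all, are known to have processed pseudogenes, and how reads matching several places were counted is likewise not given.

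Because most members are textbook targets of the hypoxia-inducible factors, the 250 bases before their annotated starts were searched for the core letters of the hypoxia response element, ACGTG or GCGTG, on both strands (CACGT and CACGC on the strand shown). An E-box, CACGTG, holds ACGTG on both strands and so also counts as a core. Of 16 member windows in the RefSeq table (all 10 members matched), 13 held a core, against 38.6% of all 32851 windows of the same length. Some windows of Eno1 and of Aldoa overlap and hold the same core letters, so the 13 are not separate matches. A core was found in at least 1 window for 9 of 10 members, the exception being Tpi1, and an E-box for 2, Ldha and Slc16a1. By window, 2 of 16 member windows held an E-box, against 6.02% of all windows. The windows compared were not matched for base composition. Members had 1 to 3 windows each, and the share of all genes with a core in any window was not computed. In the only Tpi1 window, 138 of the 250 bases lie in annotated Tpi1 exons. The 5 windows shown here belong to members on which the results turn, the lactate dehydrogenase gene, a kinase, a mutase and both transporters; core letters are in capitals, all are on the plus strand of GRCm38.p6, and the final base lies next to the annotated start. None of them overlaps an annotated exon except that of Slc16a3, with 14 bases in an annotated Slc16a3 exon. A match describes letters and is not evidence of binding.
Ldha chr7:46845554-46845803: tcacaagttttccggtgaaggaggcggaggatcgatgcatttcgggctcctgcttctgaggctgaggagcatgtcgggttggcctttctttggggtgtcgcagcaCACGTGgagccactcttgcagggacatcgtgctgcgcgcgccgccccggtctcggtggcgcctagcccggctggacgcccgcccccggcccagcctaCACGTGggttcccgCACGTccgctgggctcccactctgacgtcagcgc
Pgk1 chrX:106186850-106187099: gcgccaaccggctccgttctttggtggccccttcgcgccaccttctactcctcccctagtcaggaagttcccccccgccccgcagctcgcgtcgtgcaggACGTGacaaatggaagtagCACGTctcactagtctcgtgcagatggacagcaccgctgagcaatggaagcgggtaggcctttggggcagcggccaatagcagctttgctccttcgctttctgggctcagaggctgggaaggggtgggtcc
Pgam1 chr19:41911621-41911870: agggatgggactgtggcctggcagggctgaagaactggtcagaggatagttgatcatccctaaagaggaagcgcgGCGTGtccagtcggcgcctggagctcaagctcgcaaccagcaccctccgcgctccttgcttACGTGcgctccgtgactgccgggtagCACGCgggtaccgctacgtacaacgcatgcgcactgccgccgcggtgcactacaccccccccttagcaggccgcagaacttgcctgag
Slc16a3 chr11:120948817-120949066: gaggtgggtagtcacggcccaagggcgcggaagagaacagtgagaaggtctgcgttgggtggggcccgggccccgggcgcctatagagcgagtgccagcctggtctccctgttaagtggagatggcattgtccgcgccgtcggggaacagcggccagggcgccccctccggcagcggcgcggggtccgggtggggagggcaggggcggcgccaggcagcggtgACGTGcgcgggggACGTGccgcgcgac
Slc16a1 chr3:104638414-104638663: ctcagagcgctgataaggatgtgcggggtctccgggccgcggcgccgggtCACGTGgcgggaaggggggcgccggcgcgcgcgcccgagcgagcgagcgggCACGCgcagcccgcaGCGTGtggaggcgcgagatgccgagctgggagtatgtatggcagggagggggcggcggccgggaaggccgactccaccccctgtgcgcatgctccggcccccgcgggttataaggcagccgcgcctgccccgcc

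The Ldha window shown held 3 core stretches, 2 of them E-boxes, the Pgk1 window held 2 and the Pgam1 window held 3. The other Ldha window, not shown, held 1 core and no E-box. In Slc16a3 both ACGTG stretches lay within 27 bases of the start, and in Slc16a1 1 of 3 stretches was an E-box.

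Across the 16 libraries the members together took up 1.36% to 1.56% of TPM in pre_SC, 0.609% to 0.896% in post_SC, 0.507% to 0.929% in pre_Liver and 0.667% to 0.996% in post_Liver. Gapdh, the dehydrogenase that makes the first NADH, was the most abundant member in all 4 groups, at 5099 ± 502 TPM (SD, n = 3) in pre_SC, 3025 ± 439 (SD, n = 3) in post_SC, 2994 ± 509 (SD, n = 5) in pre_Liver and 3448 ± 660 (SD, n = 5) in post_Liver, on the shared-gene scale. In every group its libraries lay clear of the next gene. In pre_SC the order continued with Pkm at 2084 ± 116 TPM, Aldoa, Eno1, Ldha, Pgk1, Pgam1 and Tpi1 at 610.8 ± 48.3 TPM, and only Aldoa with Eno1 and Eno1 with Ldha overlapped as neighbours. In pre_Liver all neighbours from Ldha, the second, down to Pgam1 overlapped, so no order among them held beyond the spread. The transporters were last in every group, with Slc16a1 above Slc16a3 by group mean. These 2 did not overlap in either subcutaneous group and overlapped in both liver groups.

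**Figure D1:**
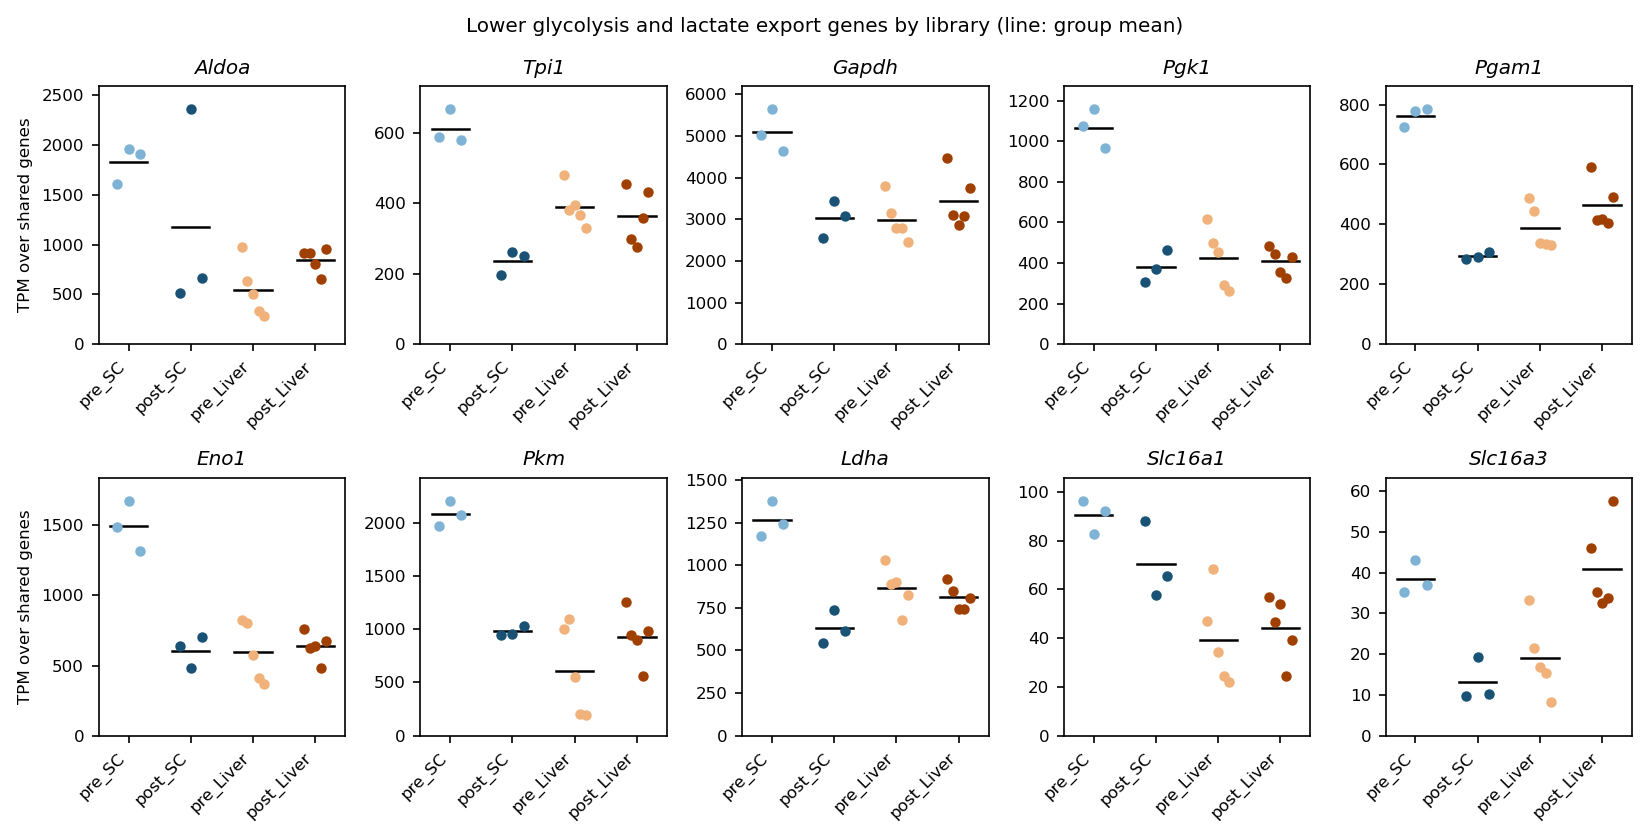
Level of each of the 10 genes in each of the 16 libraries (points, TPM over the genes shared by the subcutaneous and liver tables, linear axes starting at 0), with the group mean as a line, for untreated and treated subcutaneous (pre_SC, post_SC) and liver (pre_Liver, post_Liver) tumors. All pre_SC libraries lie above all pre_Liver libraries for each gene, and post_SC replicate 2 is the high Aldoa point at 2355 TPM.

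In subcutaneous tumors, 8 of 10 members fell after paclitaxel and none rose: Tpi1, Gapdh, Pgk1, Pgam1, Eno1, Pkm, Ldha and Slc16a3 (limma on log2(TPM + 1), Benjamini-Hochberg adjusted p under 0.05 over all genes). Of all 13366 genes tested, 4.29% were called lower in the same fit. The median log2 difference was −1.20 over the members and −0.03 over all genes. Levels in the next paragraphs are TPM of the subcutaneous table, in the order of the numbered libraries.

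Among the enzymes, Pgk1, Pgam1 and Tpi1 fell most. Pgk1, phosphoglycerate kinase, which makes the first ATP of the lower pathway, was at 1068, 1150 and 960.1 TPM before and 306, 365.9 and 460.5 TPM after treatment. Its lowest untreated library was above its highest treated library, and the log2 difference was −1.50 ± 0.16 (SE; adjusted p = 0.0067, limma), or 2.83-fold lower. Pgam1, phosphoglycerate mutase, had the tightest replicates, with 719.1, 774.3 and 778.8 TPM before and 281.2, 288.8 and 304.4 TPM after. It was 2.59-fold lower (log2 −1.37 ± 0.09, limma adjusted p = 0.00163), with no overlap. Tpi1, the isomerase that interconverts the triose phosphates, was at 583.8, 662.5 and 574.9 TPM before and 195.1, 260.9 and 248.4 TPM after. It fell by as much as Pgam1, at −1.37 ± 0.13 (adjusted p = 0.0062, limma).

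Pkm, Ldha and Gapdh fell less. The pyruvate kinase gene Pkm, that of most non-hepatic tissues and the second ATP-making step, went from 1961, 2192 and 2061 TPM to 941.7, 948.3 and 1027 TPM. All treated values lay within a narrow band below all untreated values (log2 −1.09 ± 0.09, adjusted p = 0.00468, limma). Ldha, which encodes the muscle-type subunit of lactate dehydrogenase, was at 1164, 1369 and 1232 TPM before and 540.4, 734.5 and 608.8 TPM after. It was 2.01-fold lower, with a log2 difference of −1.01 ± 0.13 (adjusted p = 0.0134, limma). Gapdh, often used to normalise expression, went from 4983, 5606 and 4616 TPM to 2543, 3408 and 3066 TPM. Its libraries did not overlap, and at −0.76 ± 0.13 it was the smallest of the called falls (adjusted p = 0.0245, limma). The Gapdh call was lost with no filter on low values (adjusted p = 0.0579), with a replicate block (0.0518) and without pre_SC replicates 1, 2 or 3 or post_SC replicate 1 in turn (0.051 to 0.086).

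Eno1, the main enolase, changed by −1.31 ± 0.16 (adjusted p = 0.0105, limma), from 1307 to 1664 TPM before and 479.1 to 695.6 TPM after treatment. The tables list separately a near-identical copy, Eno1b, at 638.4 to 845.2 TPM before and 186.4 to 308.5 TPM after, so the reads of enolase 1 may be divided between the copies and the level of Eno1 is uncertain. Eno1b moved in the same direction, at −1.62 ± 0.19 (adjusted p = 0.0103, limma).

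The transporters parted. Slc16a3, which encodes MCT4, the low-affinity exporter of highly glycolytic cells, was at 34.97, 42.93 and 36.81 TPM in untreated and 9.607, 19.25 and 10.15 TPM in treated libraries. No treated library reached the untreated ones, and the fall was 2.92-fold (log2 −1.55 ± 0.26, adjusted p = 0.0204, limma). Slc16a1, which encodes MCT1, a transporter found in most tissues, was at 95.68, 82.26 and 91.62 TPM before and 87.36, 57.1 and 65.04 TPM after. These groups overlapped, and the difference of −0.38 ± 0.17 did not pass (adjusted p = 0.194, limma; 95% interval −0.77 to 0.01).

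Aldoa, the aldolase of muscle and most tumors, did not pass, with a log2 difference of −0.96 ± 0.50 (adjusted p = 0.254, limma). Its levels were 1597, 1947 and 1895 TPM in untreated libraries and 513.8, 2340 and 657.8 TPM in treated ones. Post_SC replicate 2 was above every untreated library, while the other 2 treated libraries were below all of them. Without post_SC replicate 2 the difference was −1.63 and passed (adjusted p = 0.00837, limma). In that fit 9 of 10 members were called lower, and 532 of 13227 genes overall in number. That library is the one with 7951 TPM of skeletal muscle markers, all 6 of which were highest there, including Ckm, the muscle creatine kinase, at 1143 TPM on the shared-gene scale against 0.1366 to 32.03 TPM in the other subcutaneous libraries. The muscle isoenzymes were also highest there: Pgam2 at 127.8 TPM against 3.3 to 9.157 TPM, and Eno3 at 165.5 TPM against 25.42 to 62.1 TPM. Slc16a3 was higher in it (19.25 TPM) than in the other treated libraries (9.607 and 10.15 TPM), and the difference of Slc16a3 without it was −1.85. The part of muscle RNA in these values was not tested.

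**Figure D2:**
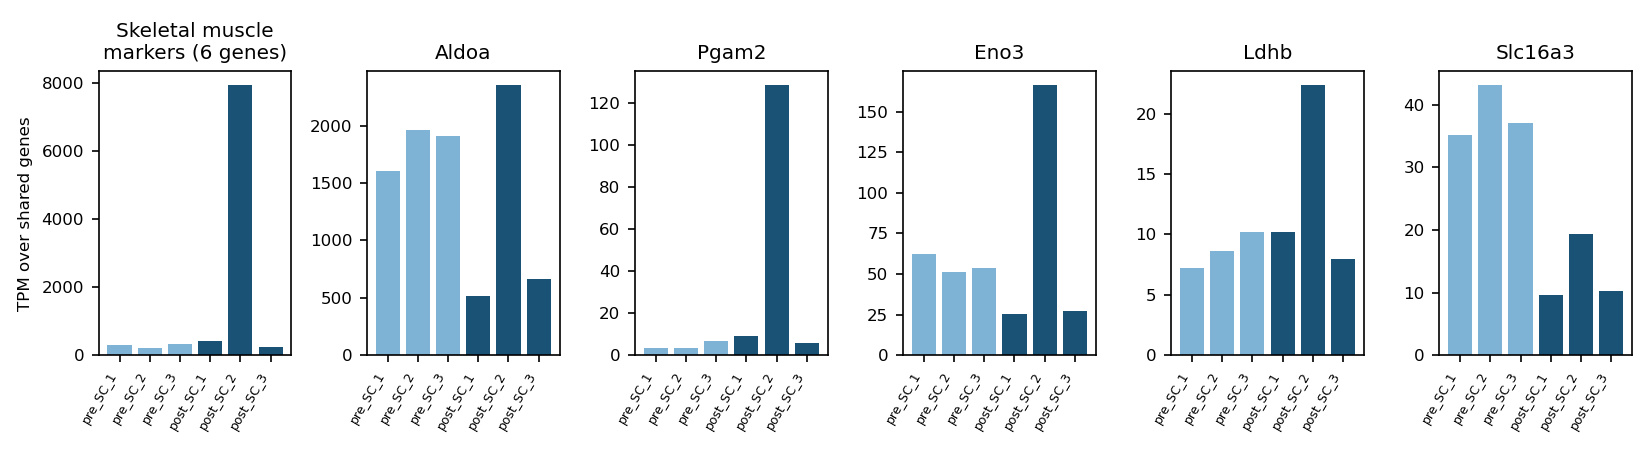
Summed level of 6 skeletal muscle markers and levels of Aldoa, the muscle isoenzymes Pgam2 and Eno3, Ldhb and Slc16a3 in the 6 subcutaneous libraries (bars, TPM over shared genes, axes starting at 0; light bars untreated, dark bars treated). Post_SC replicate 2 has the tallest bar in every panel except that of Slc16a3, where it is the tallest of the treated bars.

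Leaving out 1 library moved the subcutaneous count between 4 and 9 members. The genes called lower then ranged from 51 of 13384, without pre_SC replicate 1, to 532 of 13227, without post_SC replicate 2. Without pre_SC replicate 1 the 4 were Tpi1, Pgk1, Pgam1 and Pkm, and without pre_SC replicate 3 Eno1 was the fifth called, while the falls themselves kept their direction. Without pre_SC replicate 1, Slc16a3 was at −1.61 (adjusted p = 0.0684), Eno1 at −1.31 and Ldha at −1.06 (both adjusted p = 0.0536, limma). Slc16a3 was also not called without pre_SC replicates 2 or 3 or post_SC replicate 1, at −1.38 to −1.57 (adjusted p = 0.0538 to 0.0804), nor Ldha without pre_SC replicate 3 (adjusted p = 0.0552, limma).

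In liver tumors, none of the 10 members passed the same test after paclitaxel, while 3.64% of the 13008 genes tested did (limma on log2(FPKM + 1), in either direction). At an unadjusted p under 0.05 there were 2, Aldoa and Slc16a3, both above 0. The share of all genes under that cut is not given here, so this count is not read as a result. The member median was 0.21 and that of all genes 0.37, so the members as a list lay below the middle of all genes on this scale. All 10 overlapped between the groups, where 6.63% of all genes did not. Levels in the next paragraphs are FPKM of the liver table.

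Slc16a3 came closest. It was at 18.02, 11.27, 8.99, 7.68 and 4.4 FPKM before and 23.36, 19.12, 17.58, 17.67 and 29.28 FPKM after treatment. Only the highest untreated library reached into the treated range, and the log2 difference was 1.11 ± 0.31 (adjusted p = 0.0658, limma; 95% interval 0.43 to 1.79). It passed under 4 of 19 alternatives and was not called under the other 15. The 4 were without pre_Liver replicate 1, at 1.34 (adjusted p = 0.0357, limma), without pre_Liver replicate 2, without post_Liver replicate 4 and with a replicate block. Over all 19 the difference ranged from 0.73 to 1.34, and the adjusted p reached 0.36 (limma). Slc16a1 stood at 25.37, 35.61, 18.39, 12.32 and 11.59 FPKM before and 28.81, 25.18, 29.28, 12.85 and 19.94 FPKM after, with wide overlap and a difference of 0.23 ± 0.33 (adjusted p = 0.599, limma).

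Aldoa and Pkm were the enzymes furthest above 0. Aldoa was at 526.9, 332.1, 268.2, 167.6 and 146.1 FPKM before and 464.5, 495.8, 433.8, 342.2 and 486.7 FPKM after (log2 0.77 ± 0.34, adjusted p = 0.152, limma). Pkm was at 543.8, 569.6, 293, 101 and 100.9 FPKM before and 639.8, 513.4, 488.8, 295.4 and 500.9 FPKM after (log2 0.93 ± 0.53, adjusted p = 0.225, limma). For both, untreated libraries 4 and 5 were lowest of all 10. These libraries also had the most hepatocyte marker RNA, 127200 and 133600 TPM summed, and the least carcinoma epithelium marker RNA, 582.5 and 674.1 TPM. Without both, the differences were 0.29 for Aldoa and 0.0747 for Pkm, neither called. The part of cell composition in these values was not tested.

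The other enzymes lay close to 0. Ldha was at 556.5, 465.4, 482.7, 341.9 and 434.4 FPKM before and 467.2, 460.7, 403.7, 390.9 and 412.3 FPKM after, a difference of −0.08 with a 95% interval of −0.51 to 0.35 (limma). Pgk1 was at 333.4, 259.5, 243.1, 147.5 and 136.7 FPKM before and 246.2, 242.2, 193.2, 172.1 and 218.2 FPKM after, a difference of 0.01 with an interval of −0.59 to 0.60. Neither interval reaches the fall that the same gene showed in subcutaneous tumors, though the responses come from separate fits in different units. The direct test of the difference, given below, did not call Ldha, and its call of Pgk1 was lost under 14 of 24 alternatives. Pgam1 stood at 263.3, 231.8, 181, 168.2 and 173.4 FPKM before and 300.3, 225.4, 226.6, 211.5 and 249.6 FPKM after. The groups overlapped, and its difference was 0.26 with an interval of −0.16 to 0.69. Gapdh (0.20), Eno1 (0.16) and Tpi1 (−0.12) had intervals that included 0. With another scaling, by the median ratio, the differences of Gapdh, Pgk1, Pgam1, Eno1 and Slc16a1 lay below 0, still uncalled. Neutrophil markers, 7 of 8 of which rose in these libraries, summed to 140.3 to 1048 TPM before and 2138 to 15850 TPM after, and their part in the levels was not tested.

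**Figure D3:**
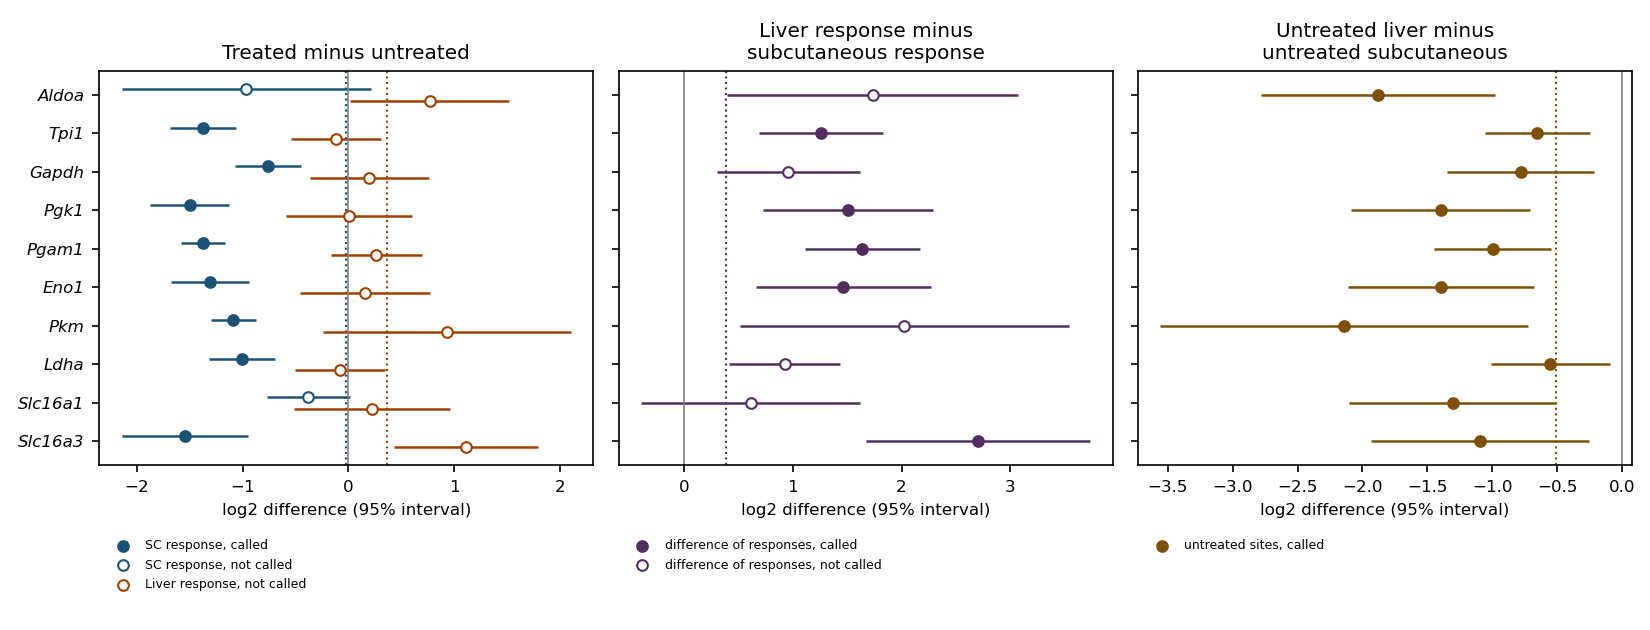
Log2 differences of the 10 genes with 95% limma intervals (filled points called at adjusted p under 0.05, open points not called): after against before treatment at each site (left), the liver response minus the subcutaneous response (middle), and untreated liver minus untreated subcutaneous tumors (right). Dotted lines mark the median of all genes in each comparison; 8 subcutaneous points and no liver point are filled on the left.

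Whether the response differed between sites was tested directly, as the interaction of site and treatment over all 16 libraries on shared-gene TPM. It was called for 5 members, all with a higher value in liver, against 2.23% of 13701 genes called higher. Slc16a3 had the largest difference at 2.70 ± 0.48 log2 units (adjusted p = 0.0114, limma). In the separate fits of each site it fell by 1.55 in subcutaneous tumors (TPM) and stood at 1.11 in liver tumors (FPKM). Pgam1 differed by 1.64 ± 0.25 (adjusted p = 0.00606), Pgk1 by 1.51 ± 0.37 (adjusted p = 0.0415), Eno1 by 1.47 ± 0.38 (adjusted p = 0.0499) and Tpi1 by 1.26 ± 0.27 (adjusted p = 0.0244, limma). The difference was not called for Ldha at 0.93 ± 0.24 (adjusted p = 0.051), Gapdh at 0.96 ± 0.31 (0.0918), Pkm at 2.02 ± 0.71 (0.113), Aldoa at 1.73 ± 0.63 (0.12) and Slc16a1 at 0.61 ± 0.47 (0.405). All 10 lay above 0, and so did the median of all genes, at 0.39. Pgam1 and Slc16a3 were called under all 24 alternatives tried, with Slc16a3 between 2.23 and 3.0 and Pgam1 between 1.18 and 1.76. Tpi1 lost the call under 7 alternatives, Pgk1 under 14 and Eno1 under 17, most of which left out 1 library. Without post_SC replicate 2, Pgk1 (adjusted p = 0.0799) and Eno1 (0.108) were not called and Aldoa was (2.40, adjusted p = 0.0321, limma).

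Before treatment, all 10 members were lower in liver than in subcutaneous tumors, and for each of them every liver library was below every subcutaneous library, as was so for 34.9% of all genes. Of all 13479 genes tested, 32.7% were called lower, and the median of all genes was −0.51, against −1.20 for the members (limma on log2(TPM + 1), shared-gene TPM). Site and the number of implanted cells cannot be told apart in this comparison. Pkm differed most, at −2.14 ± 0.62 (adjusted p = 0.0261, limma), with 1973, 2205 and 2074 TPM in pre_SC and 1006, 1092, 547.5, 200.5 and 192.1 TPM in pre_Liver. Aldoa, at −1.88 ± 0.40 (adjusted p = 0.00884, limma), went from 1607, 1958 and 1907 TPM to 974.5, 636.5, 501.2, 332.9 and 278 TPM. In both genes the liver libraries spread over more than the gap to the subcutaneous ones, with replicates 4 and 5 at the bottom.

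Pgk1 (−1.40 ± 0.30), Eno1 (−1.39 ± 0.32) and Slc16a1 (−1.30 ± 0.35) followed. Slc16a1 was at 96.26, 82.73 and 92.2 TPM in pre_SC and 46.92, 68.25, 34.37, 24.46 and 22.06 TPM in pre_Liver, so the MCT1 gene, called in neither response, was called between the sites (adjusted p = 0.021, limma). Slc16a3 differed by −1.10 ± 0.37 (adjusted p = 0.0397), Pgam1 by −0.996 ± 0.198 (adjusted p = 0.00695), Gapdh by −0.78 ± 0.25 (adjusted p = 0.0342), Tpi1 by −0.65 ± 0.18 (adjusted p = 0.0222) and Ldha by −0.55 ± 0.20 (adjusted p = 0.0493, limma). With median-ratio scaling, which moved the median of all genes to −0.02, 6 members stayed called and Tpi1, Gapdh, Ldha and Slc16a3 were not; the split of all calls then changed from 2007 higher and 4406 lower to 3079 higher and 2466 lower. The authors' table of untreated libraries treats pre_Liver replicates 4 and 5 as a set apart from the other 6 libraries. Within those 6, the 3 against 3 comparison called 7 members, with Gapdh at −0.66, Ldha at −0.42 and Slc16a3 at −0.71 not called. In that comparison 2727 of 13544 genes were called lower. The set of 2 liver libraries holds no subcutaneous library. Without pre_SC replicate 1 the count was 3, Aldoa, Pgk1 and Pgam1, and 794 of 13446 genes were called lower. Without pre_SC replicate 2 or 3 the count was 4, with Eno1 added, and 1541 of 13464 and 862 of 13401 genes were called lower. The calls of Pkm (adjusted p = 0.0751 to 0.0825) and Slc16a1 (0.0559 to 0.079, limma) were thus lost without any 1 of the pre_SC libraries. Without pre_Liver replicate 3 the count was 5, and Pkm was not among them (adjusted p = 0.0527, limma). In that fit 1892 of 13491 genes were called lower. The carcinoma epithelium markers were also lower in untreated liver tumors for 10 of 10 genes, with a median of −2.58, further below 0 than the members.

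After treatment, levels across sites come from tables normalised separately and were compared by overlap only. Slc16a3 was at 45.98, 35.26, 32.41, 33.72 and 57.55 TPM in post_Liver and 9.669, 19.38 and 10.22 TPM in post_SC, so all treated liver libraries lay above all treated subcutaneous ones. Before treatment the order was the opposite. Pgam1, Tpi1 and Ldha were likewise higher in post_Liver without overlap, Slc16a1 was lower without overlap and 5 members overlapped. Of 13765 genes, 27.7% had no overlap between these groups.

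Other isoenzymes of the same steps differed by site. Pklr, the pyruvate kinase of hepatocytes, was at 50.77 to 275.4 TPM in pre_Liver and at most 0.1757 TPM in the subcutaneous libraries. It fell in treated liver tumors by 2.80 ± 0.53 log2 units (adjusted p = 0.0217, limma). Eno2, the neuronal enolase and a known hypoxia target, fell in subcutaneous tumors (−1.56 ± 0.27, adjusted p = 0.0225, limma). It was the only one of 7 further isoenzymes tested there that was called.

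Pkm made up 44.7% to 95.56% of pyruvate kinase TPM in pre_Liver and 92.86% to 99.22% in post_Liver (exact two-sided permutation p = 0.0159). Slc16a3 made up 32.9% ± 7.28 of the TPM of both transporters in pre_Liver and 48.6% ± 9.64 in post_Liver (SD, n = 5 each; exact two-sided permutation p = 0.0238), and 29.9% ± 3.92 and 16.2% ± 8.0 in pre_SC and post_SC (SD, n = 3 each; exact p = 0.1, the smallest these 6 libraries allow). After adjustment over the 15 share tests none passed, the lowest adjusted p being 0.0992. Lactate dehydrogenase was almost all Ldha at both sites (97.06% to 99.38% against Ldhb).

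**Figure D4:**
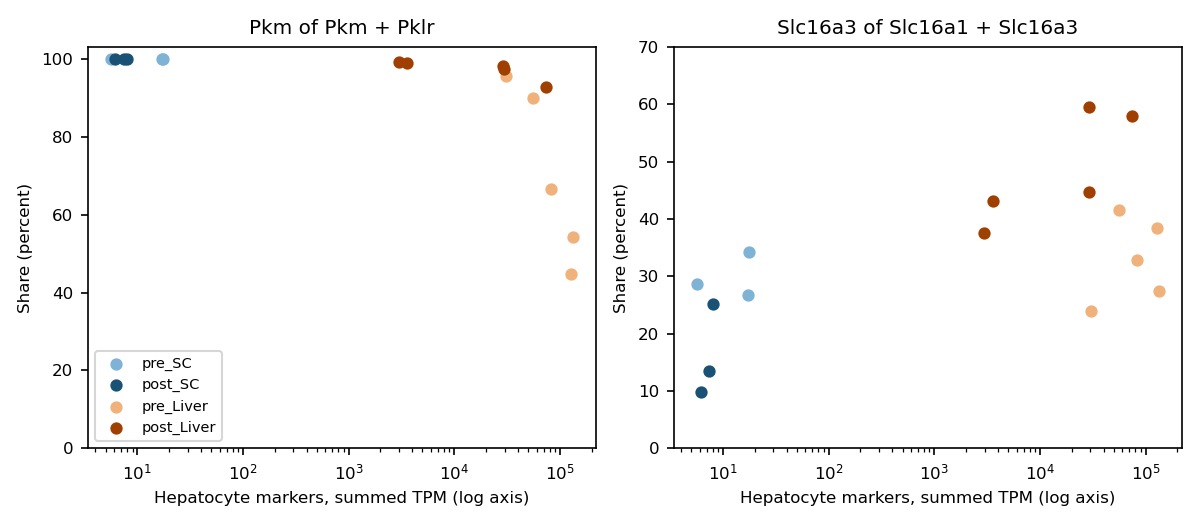
Share of Pkm among pyruvate kinases (left) and of Slc16a3 in Slc16a1 plus Slc16a3 (right), in percent, against the summed TPM of 10 hepatocyte markers (log axis) in the 16 libraries. Among liver libraries the Pkm share is lowest (44.7% and 54.2%) in the 2 libraries with the highest hepatocyte sums (127200 and 133600 TPM); the Slc16a3 share is higher in post_SC replicate 2 (25.21%) than in the other post_SC libraries.

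Among liver libraries the Pkm share was lower where the hepatocyte marker sum was highest, which ranged over 2977 to 133600 TPM, and the part of hepatocyte RNA in it was not tested. All 10 hepatocyte markers were below 0 in the liver response and none was called.

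Genes upstream of the members were read from a list of 10, from glucose uptake to phosphofructokinase. In subcutaneous tumors 5 fell and none rose: the glucose transporter Slc2a1 (−1.76 ± 0.20), the hexokinases Hk1 (−0.50 ± 0.11) and Hk2 (−0.82 ± 0.12), and the phosphofructokinases Pfkl (−1.73 ± 0.13) and Pfkp (−1.31 ± 0.11; limma, each passing). In liver tumors 2 rose, Slc2a3, a high-affinity glucose transporter abundant in neutrophils, by 1.74 ± 0.26 (adjusted p = 0.00786, limma) and Pfkfb4, which makes the activator of phosphofructokinase, by 1.21 ± 0.20 (adjusted p = 0.0135, limma). The response differed between sites for 5 of these 10, Pfkl (2.23 ± 0.36), Slc2a3, Pfkfb4, Slc2a1 (2.66 ± 0.52) and Gpi1 (1.27 ± 0.32), all higher in liver. Before treatment 7 of 10 were lower in liver.

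Of the proteins that work with the transporters, Bsg is the chaperone basigin that brings MCT1 and MCT4 to the membrane. It fell in subcutaneous tumors by 0.56 ± 0.12 log2 units (adjusted p = 0.0376, limma), and was at 0.06 ± 0.17 in liver tumors. The difference between these responses was not called. Emb, embigin, another chaperone of this family, had a response that differed between sites (1.93 ± 0.50, adjusted p = 0.0498, limma). Slc16a7, the high-affinity transporter MCT2, was at 7.762 to 42.86 TPM in pre_Liver and at most 0.7931 TPM in subcutaneous libraries.

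Of 14 genes that set the fate of pyruvate, 1 rose in subcutaneous tumors, Mpc2, a subunit of the mitochondrial pyruvate carrier (0.49 ± 0.11, adjusted p = 0.047, limma), and none fell. In liver tumors 1 fell, the malic enzyme Me1 (−2.05 ± 0.47, adjusted p = 0.0425, limma). The 4 genes of gluconeogenesis on the list, Pcx, Pck1, Fbp1 and G6pc, were all higher in untreated liver than in untreated subcutaneous tumors (log2 4.75 to 8.86), and none was called in the liver response or, for the 3 tested there, in the subcutaneous response.

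Of 10 targets of the hypoxia-inducible factors outside glycolysis, 6 fell in subcutaneous tumors, among them Car9, a membrane carbonic anhydrase that buffers exported acid (−3.13 ± 0.35, adjusted p = 0.00831, limma), and Ero1l, an oxidase of the endoplasmic reticulum (−1.81 ± 0.23, adjusted p = 0.0115, limma). None was called in liver tumors, and 4 had a response that was higher in liver, P4ha1, Ero1l, Ndrg1 and Car9. The messages of the factors themselves showed no called change with treatment, with Hif1a at −0.37 ± 0.18 in subcutaneous and 0.22 ± 0.21 in liver tumors. Egln1, the prolyl hydroxylase that marks the factors for decay and is itself a target, fell in subcutaneous tumors (−0.78 ± 0.14, adjusted p = 0.0231, limma). Of 8 cell division genes, none had a called difference between the responses of the sites. In subcutaneous tumors 7 of them fell, with Bub1b at −1.31 ± 0.17 (adjusted p = 0.0115, limma), and none was called in liver tumors. Endothelial markers moved the other way, with 5 of 8 called higher in subcutaneous tumors, and 1 of 10 carcinoma epithelium markers, Ovol1, was called lower. The part of any of these in the members' levels was not tested.

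Of 10 genes often used to normalise expression, such as Actb, Hprt and Ppia, none was called in the subcutaneous response, where their median was −0.12 and Gapdh fell. None was called in the liver response either. Between untreated sites 1 was higher (Sdha) and 4 were lower.

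The genes most like the mean of the members over the 16 libraries, after each table's own mean was removed, were Pfkl (r = 0.981), Ddx23 (0.940), Upp1 (0.939), Ywhag (0.938), Mif (0.933) and Map2k1 (0.933), among 11305 genes. Pfkl, which commits fructose phosphate to the pathway, went from 190.3 TPM in pre_SC to 56.8 TPM in post_SC and from 67.7 TPM in pre_Liver to 92.2 TPM in post_Liver by group mean. The members' own likeness to the mean of the other members was 0.92 for Gapdh, the highest, and 0.60 for Slc16a1, the lowest. Tpi1 and Ldha followed the others more closely in the 6 subcutaneous libraries (r = 0.996 and 0.995) than in the 10 liver libraries (0.393 and 0.553). These points share treatment, libraries and cell composition, and the values are descriptions.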

How the data were processed

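Poly(A) RNA-seq of digested 4T1 tumors was deposited in 3 tables that name no unit. Units were read from the values: TPM deposited by the authors for subcutaneous libraries (columns sum to 1000000), and FPKM deposited by the authors for liver libraries (sums of 511645 to 547765). The authors' table of untreated libraries holds signed score values, TPM plus a constant per gene and set of libraries (2382 genes below 0; for Pkm −338.5 in 6 libraries and 338.5 in 2). The design had allowed for this, so it served only as an alternative. Per the submitters' processing notes, fastp and StringTie were used with GRCm38/mm10; roles and versions are not given in the sources used here.

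Genes whose mean was at least 1 were tested on the log2(value + 1) scale, which understates fold changes of low genes, with limma 3.58.1 (R 4.3.3, eBayes with trend), group as the only term, Benjamini-Hochberg threshold 0.05. Tests were checked on simulated data. Shares used exact permutation tests (SciPy 1.17.1). Alternatives changed the pseudocount (0.1), filter, scaling, trend, replicate block and libraries. Genes were named by fixed lists and likeness; members and lists were chosen with earlier results of these data known. The other genes singled out were chosen after their values were seen. Upstream sequences came from RefSeq (GRCm38.p6) and coordinates from GENCODE. Some of the results computed are not reported here.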

Additional observations from a re-analysis of the deposited data

Results flagged for a closer look

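The response to paclitaxel differed between sites, by the test of the difference itself (limma, adjusted p under 0.05), for 5 of the 10 genes. The liver response exceeded the subcutaneous response by 1.26 log2 units for Tpi1, 1.51 for Pgk1, 1.64 for Pgam1, 1.47 for Eno1 and 2.70 for Slc16a3. Only for Pgam1 and Slc16a3 did the call hold under all 24 alternatives. The check for a library far from the others in its group ran only on the liver groups, since the subcutaneous groups of 3 are too small for it, and found none among the members.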

How the results depend on the processing

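Counts of members called with 1 library left out ranged from 4 to 9 in the subcutaneous response, 0 to 1 in the liver response, 3 to 10 between untreated sites and 2 to 8 for the difference of responses. Over all genes they ranged from 78 to 775, 117 to 3532, 2117 to 9232 and 91 to 2585. Median-ratio scaling called 6 members between untreated sites and, over all genes, 221 in the liver response. Leaving out both libraries of the set that the authors adjusted apart (pre_Liver replicates 4 and 5), chosen after seeing the data, called 2 members for the difference of responses, 149 genes there and 78 in the liver response.

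Correlations did not settle whether equal numbers pair the libraries, since deviations can also follow cell composition. Same-numbered deviations correlated at 0.129, −0.158 and −0.113 in subcutaneous tumors and at −0.12, 0.677, −0.014, 0.746 and 0.261 in liver tumors. Not every library was closest to its own number, as pre_Liver replicate 2 correlated at 0.693 with post_Liver replicate 3. With a replicate block 7 members were called in the subcutaneous response (Gapdh was not), 1 in the liver response (Slc16a3), 6 between untreated sites and 8 for the difference of responses, and over all genes 336 in the subcutaneous response, 3456 in the liver response, 3572 between untreated sites and 2133 for the difference.

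Directions reversed only for members that were not called in the liver response and for 1 share. With median-ratio scaling Gapdh was at −0.20, Pgk1 at −0.40, Pgam1 at −0.14, Eno1 at −0.25 and Slc16a1 at −0.16. With quantile normalization Ldha was at 0.0619 and Slc16a1 at −0.055. Without hepatocyte genes in the sum Pgk1 was at −0.0695. Without pre_Liver replicates 4 and 5 Pgk1 was at −0.38, Eno1 at −0.22 and Slc16a1 at −0.19. With 1 library left out Pgk1 ranged from −0.15 to 0.17. The change in the share of Eno1 in Eno1, Eno2 and Eno3 in the subcutaneous response then ranged from −10.7 to 0.34 percentage points. The latter value was without post_SC replicate 2, and the copy Eno1b was not part of this share. The cause of these shifts was not tested. Depth is unknown, so no limit from read counts can be set.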
